A study of Mus musculus with 12 samples.

Results

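Cells of the mouse mammary carcinoma line 4T1 carrying either of 2 guides against Cebpd, sgRNA2 or sgRNA1, were compared with each other after IFN-gamma. 4 of the 12 libraries of the series enter the comparison, 2 from each guide line, chosen by their labels and not by any measured value, and all 13601 genes that passed a filter on low counts were tested. The groups of the series, each with 2 libraries, were the sgRNA2 line, the sgRNA1 line and a control line with a guide against the Rosa26 locus, each with IFN-gamma at 20 ng/ml for 24 hours or with vehicle. The labels give the genotype of both guide lines as Cebpd knockout and that of the Rosa26 line as control. The 4T1 line comes from a BALB/c mammary tumour that lacks hormone receptors, and every group, control included, carries a CRISPR guide. Whether a line is 1 clone or a pool is not given in the sources used here. The labels do not tell whether the paired libraries of a group are separate cultures, so each p-value weighs a difference against a spread that may be technical alone.

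IFN-gamma binds a receptor that activates the kinases JAK1 and JAK2, which pass the signal on to transcription factors. These factors, among them IRF1, then switch on guanylate-binding proteins, antigen presentation, chemokines and, through shared promoter elements, many genes also driven by type I interferon. Cebpd encodes C/EBP delta, a basic leucine zipper transcription factor that is induced by cytokines and acts on acute phase and inflammatory genes. Guides against the same gene share the target but not the site, so the comparison asks which programmes differ between lines meant to carry the same loss.

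The 4 libraries held 18625885 and 24784371 counts in sgRNA2 cells, and 19696592 and 18435431 counts in sgRNA1 cells. All 8 carcinoma markers examined (Epcam, Krt7, Krt8, Krt14, Krt18, Cdh1, Cldn4 and Cldn7) were present in every library. The pan-leukocyte gene Ptprc had 0 and 0 counts in sgRNA2 cells, and 1 and 2 counts in sgRNA1 cells, and the leukocyte gene Coro1a had 6 and 19 counts in sgRNA2 cells, and 21 and 11 counts in sgRNA1 cells. Of 7 neutrophil markers only S100a8 was tested. It was higher in sgRNA2 cells (0.85, adjusted p = 0.04405), with 4.67 and 3.57 CPM in sgRNA2 cells and 2.06 and 2.48 CPM in sgRNA1 cells. Of 7 macrophage markers 4 were tested: Cd68 was higher, Cd14 and Mrc1 were lower and Csf1r was not called. Of 7 fibroblast markers 2 were tested, and of 6 endothelial markers 1, with 0 called higher or lower. Lymphocyte and erythroid markers were not analysed here. In a bulk library, fewer cells of a kind and less RNA per cell cannot be told apart.

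Cebpd mRNA (chr16:15887286-15891031, plus strand, GRCm38) was present in every library and lower in sgRNA2 cells. It had 30.2 and 29.4 CPM (counts scaled to the effective library size) in sgRNA2 cells, 45.9 and 45.6 CPM in sgRNA1 cells and 53.5 and 49.1 CPM in control cells, all with IFN-gamma. The libraries of the 2 guide lines did not overlap, which was also so for 9977 of the 13601 genes tested. The log2 fold change of sgRNA2 over sgRNA1 was -0.62 ± 0.09 (SE; adjusted p = 1.27e-05, edgeR's quasi-likelihood test, 2 libraries per group). In vehicle the corresponding values were 10.6 and 8.51 CPM in sgRNA2 cells, 13.6 and 13.4 CPM in sgRNA1 cells and 9.09 and 7.13 CPM in control cells. That difference was -0.50 ± 0.12 (adjusted p = 0.00135), and the 2 differences were not shown to be unequal (-0.12 ± 0.15, adjusted p = 0.549). A count summed over the gene cannot reveal a small insertion or deletion at a cut site, so it is no check of the knockout itself.

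The guide lines differed widely. At an adjusted p below 0.05, the threshold for a call throughout, 6518 genes (47.9% of those tested) differed between sgRNA2 and sgRNA1 cells in IFN-gamma. Of these, 3182 (23.4%) were higher and 3336 (24.5%) lower in sgRNA2 cells. The balance of directions depended on the scaling, with 3538 higher and 2917 lower with upper quartile scaling. Most differences were small: the median size among called genes was 0.393 on the log2 scale, and 293 genes (2.15%) were called at least 2-fold higher and 219 (1.61%) at least 2-fold lower, or 236 and 243 after a correction for gene length. The median over all genes was close to 0 (-0.0005). Because so large a share of genes was called, the counts of the gene lists below are read against 23.4% higher and 24.5% lower.

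**Figure D1:**
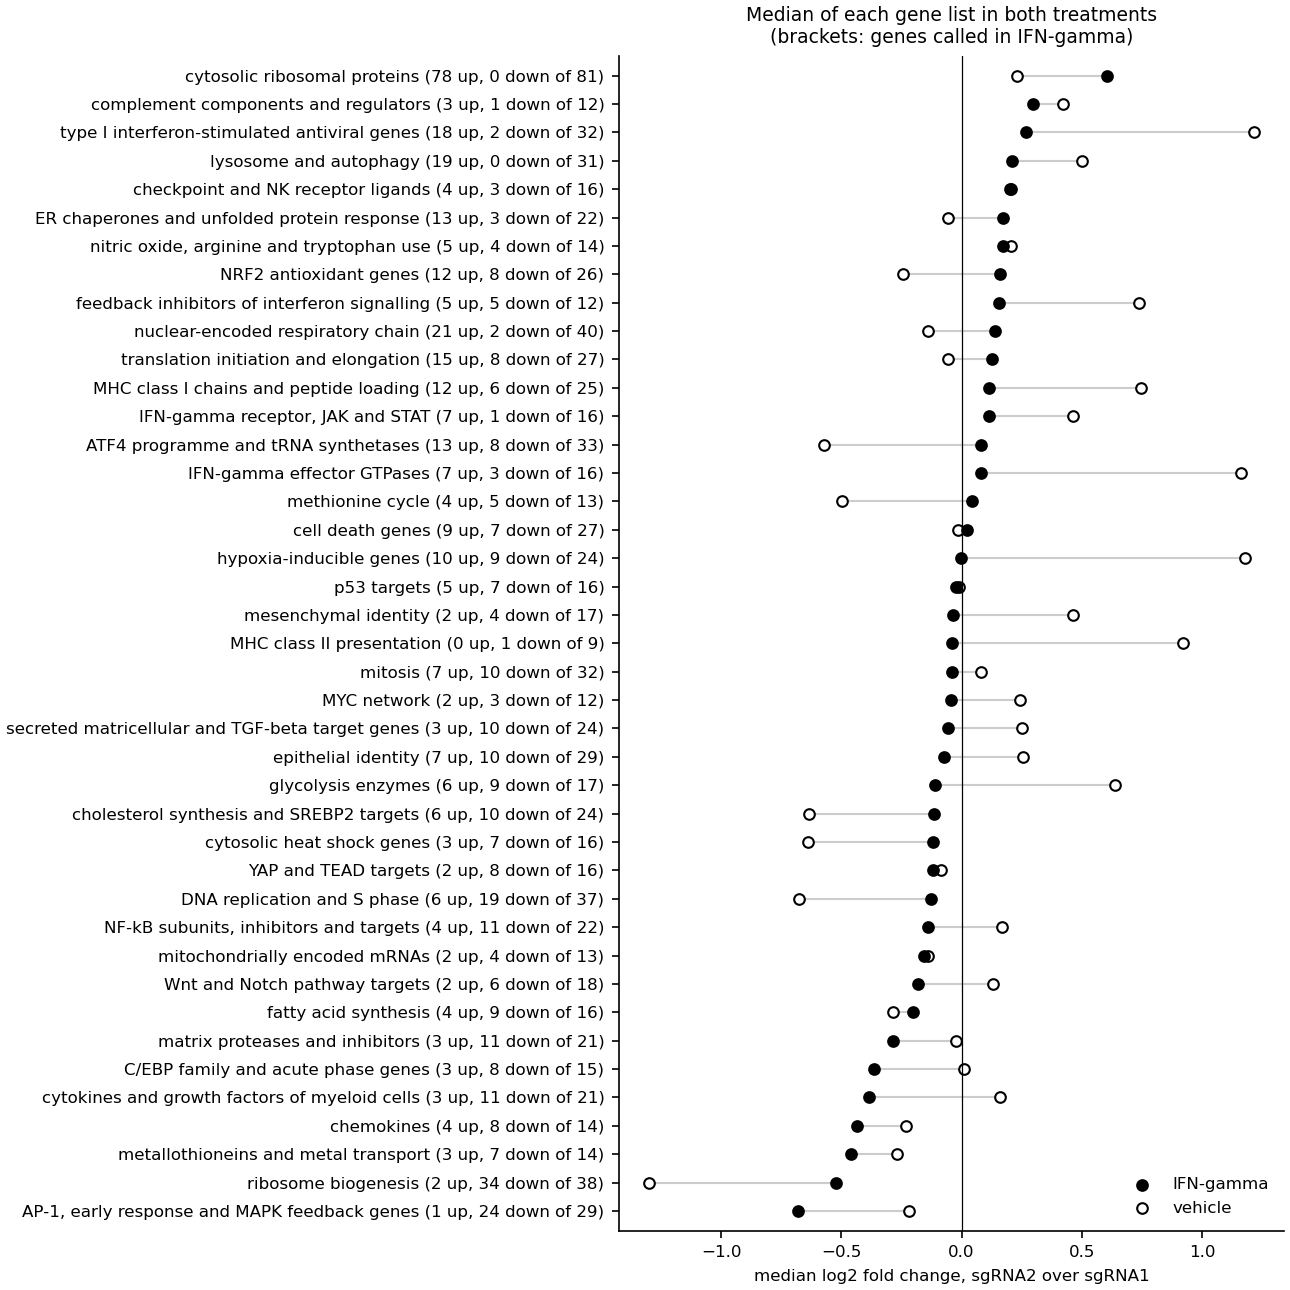
Median log2 fold change of sgRNA2 over sgRNA1 for each gene list in IFN-gamma (filled) and in vehicle (open), in order of the IFN-gamma value; brackets give the members called higher and lower in IFN-gamma of those tested. Ribosomal proteins lie at the top (0.60) and early response genes at the bottom (-0.68). Several interferon lists and the hypoxia list lie much further to the right in vehicle than in IFN-gamma.

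Ribosomal protein mRNAs and ribosome biogenesis genes differed in opposite directions. Of 81 cytosolic ribosomal protein mRNAs, 78 were higher in sgRNA2 cells and 0 lower, with a median log2 fold change of 0.60. Of 38 ribosome biogenesis genes, which make and assemble rRNA, 34 were lower and 2 higher, with a median of -0.52. Among 27 initiation and elongation factors 15 were higher and 8 lower.

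Rpl17, a protein of the large subunit, had 2076 and 1929 CPM in sgRNA2 cells, against 940 and 883 CPM in sgRNA1 cells (log2 fold change 1.14 ± 0.05, adjusted p = 3.29e-11). Rps3, of the small subunit, had 3188 and 3037 CPM in sgRNA2 cells, against 1753 and 1584 CPM in sgRNA1 cells (0.90 ± 0.04). In both genes each sgRNA2 library lay far above each sgRNA1 library. Rpl22l1 (1.12), Rpl10a (1.05) and Rpl9 (0.99) were the next highest with even libraries. Rpl41 had an uneven pair, 3966 and 2427 CPM in sgRNA2 cells, against 1692 and 1506 CPM in sgRNA1 cells. Rps2, Rps28 and Rps29 were not called, with log2 fold changes of 0.18, 0.34 and 0.44.

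Ribosomal protein mRNAs took 11.8% and 10.7% of all counts in sgRNA2 cells, against 7.97% and 7.50% in sgRNA1 cells. Control cells with IFN-gamma lay at 7.97% and 7.98%, level with the sgRNA1 line by this share of unscaled counts. In summed CPM, scaled to the effective library size, control lay higher, at 82800 and 82760, against 73570 and 68740 in sgRNA1 cells. In vehicle the shares were 13.5% and 13.99% in sgRNA2 cells, 11.7% and 11.7% in sgRNA1 cells and 8.95% and 9.05% in control cells. The guide difference of the list was smaller in vehicle (56 higher, 2 lower, median 0.23) than in IFN-gamma, and for 69 of the 81 genes the change between treatments was itself called and positive.

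Eef1a1, the elongation factor that carries aminoacyl-tRNA to the ribosome, showed the largest difference in CPM among the genes higher in sgRNA2 cells. It had 19530 and 17790 CPM in sgRNA2 cells, 8468 and 8490 CPM in sgRNA1 cells and 16300 and 16570 CPM in control cells. The sgRNA1 libraries alone stood low, and the log2 fold change was 1.14 ± 0.04 (adjusted p = 9.07e-12). Rack1, a ribosome-bound scaffold, was also higher (3626 and 3468 CPM in sgRNA2 cells, 2027 and 1941 CPM in sgRNA1 cells). Other elongation and initiation members followed, among them Eif3h (0.72), Eif3e (0.63), Eef1b2 (0.60) and the growth-related Tpt1 (0.57). The scaffold of the cap-binding complex Eif4g1 (-0.46) and Eif3b (-0.46), a core subunit of the eIF3 complex, were lower.

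**Figure D2:**
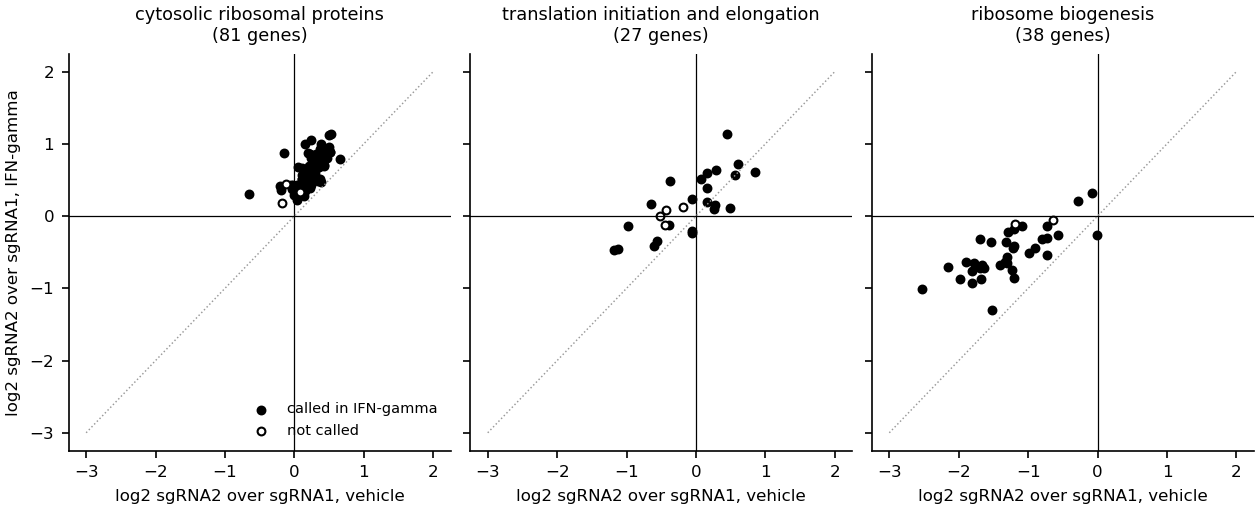
Log2 fold change of sgRNA2 over sgRNA1 in IFN-gamma against that in vehicle, gene by gene, for ribosomal proteins, translation factors and ribosome biogenesis genes; filled points were called in IFN-gamma and the dotted line marks equal differences. Ribosomal proteins lie to the upper right, with 69 of 81 significantly above the line, and biogenesis genes lie at the lower left, with 34 of 38 significantly above it.

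Among biogenesis genes Mdn1, the AAA ATPase that strips factors from pre-60S particles, had 30.5 and 31.6 CPM in sgRNA2 cells, against 73.4 and 79.2 CPM in sgRNA1 cells (-1.29 ± 0.06). Control cells had 30.8 and 31.1 CPM, level with the sgRNA2 line. Rrp12 (-1.003), Heatr1 (-0.93), Utp20 (-0.87) and Nolc1 (-0.87) followed, and Nop2, an rRNA methyltransferase, had 75.0 and 74.3 CPM in sgRNA2 cells, against 117 and 125 CPM in sgRNA1 cells. Only Npm1 (0.21), the nucleolar chaperone, and Polr1c (0.32), a subunit shared by RNA polymerases I and III, were higher. In vehicle 36 of the 38 were lower and 0 higher, with a median of -1.30, and the change of the guide difference between treatments was called and positive for 34 genes. Control cells with IFN-gamma lay below both guide lines for 31 of the 38. Myc, a transcription factor of many of these genes, had 125 and 123 CPM in sgRNA2 cells, 199 and 208 CPM in sgRNA1 cells and 96.1 and 101 CPM in control cells (-0.71 ± 0.04). Its partner Max was lower too (-0.44), whereas Mxd1, a MAX-binding repressor, was higher (1.04 ± 0.12).

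The starts of ribosomal protein mRNAs carry a run of pyrimidines, which couples their translation to growth signals. A run of at least 6 pyrimidines opening with C, from 4 bases before to 16 bases after the RefSeq start on the sense strand, was found for 30 of the 60 listed genes with a window, against 4200 of 27025 genes (15.5%). 4 of the most raised members that hold it are shown from 30 bases before to 20 bases after the start, with the run in capitals (RefSeq, GRCm38.p6).
Rpl22l1, chr3:28805478-28805527, plus strand: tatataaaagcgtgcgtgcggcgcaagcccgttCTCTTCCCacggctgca
Rps24, chr14:24490648-24490697, plus strand: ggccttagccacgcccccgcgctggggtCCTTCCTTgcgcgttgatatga
Rps18, chr17:33955646-33955695, minus strand: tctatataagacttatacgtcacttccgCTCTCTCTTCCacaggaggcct
Rpl38, chr11:114668550-114668599, plus strand: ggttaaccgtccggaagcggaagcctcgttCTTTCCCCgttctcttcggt

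The hexamer CACGTG, the E-box read by MYC and related factors, lay within 250 bases before to 50 bases after the start of 8 of 33 biogenesis genes with a window (24.2%), against 2187 of 27025 genes (8.09%). The 3 lowest members whose match ends before the start or at most 30 bases after it are shown with it in capitals (RefSeq, GRCm38.p6, as for all windows here). The sequence reads the same on both strands, and a match describes the letters, not binding.
Nop2, chr6:125131793-125131858, plus strand: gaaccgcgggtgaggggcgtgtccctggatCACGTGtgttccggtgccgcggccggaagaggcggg
Utp4, chr8:106893625-106893669, plus strand: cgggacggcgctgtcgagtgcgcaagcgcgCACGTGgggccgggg
Rrn3, chr16:13780621-13780686, plus strand: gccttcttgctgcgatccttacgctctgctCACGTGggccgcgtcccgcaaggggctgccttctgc

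Gene length moved with the guide difference. Outside the ribosomal protein genes, the median log2 fold change in IFN-gamma was 0.26 for the 595 genes with exons of up to 1000 bases, 0.12 for those up to 2000 bases, 0.04 up to 4000 bases, -0.04 up to 8000 bases and -0.09 for the 2169 longer genes. In vehicle the 5 medians were 0.12, 0.04, 0.02, 0.02 and 0.13, with no steady fall. The Spearman coefficient across 13334 genes was -0.179 in IFN-gamma and 0.0225 in vehicle, as a description, since genes share libraries and are not replicates. The replicates differed in the same sense: sgRNA2 library 1 exceeded library 2 by a median of 0.155 in the shortest genes, and sgRNA1 library 1 exceeded library 2 by 0.0975. The median exon length was 1770 bases for ribosomal proteins, 2147 for the respiratory chain and 4168 for all genes. After a correction of each library for its trend with length, added after the data were seen, 74 ribosomal proteins were higher and 1 lower, with a median of 0.49. Without sgRNA2 library 1 the counts were 74 and 0. The part of RNA quality or fragment selection in this trend was not tested.

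**Figure D3:**
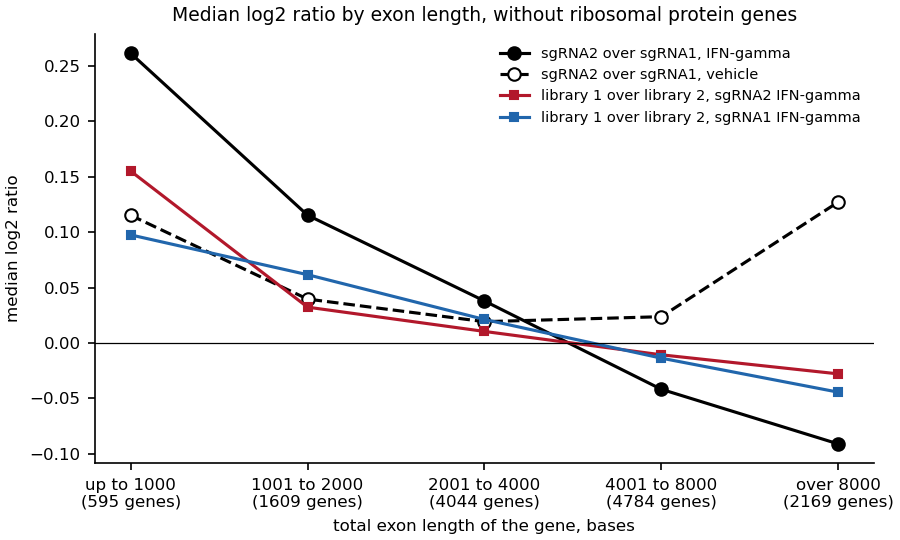
Median log2 fold change of sgRNA2 over sgRNA1 in 5 classes of exon length, in IFN-gamma and in vehicle, and of library 1 over library 2 within each guide line in IFN-gamma, without ribosomal protein genes. The IFN-gamma medians fall from class to class, 0.26 in the shortest and -0.09 in the longest, and the vehicle medians do not.

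Of 40 nuclear-encoded subunits of the mitochondrial respiratory chain 21 were higher and 2 lower, among the higher ones Ndufs4 (0.66), Atp5h (0.66) and Ndufv2 (0.58), and among the lower ones cytochrome c, Cycs (-0.30). With the length correction these counts were 13 and 7. Of 13 mitochondrially encoded mRNAs 2 were higher and 4 lower. mt-Co1 was higher (2863 and 2684 CPM in sgRNA2 cells, 1941 and 1986 CPM in sgRNA1 cells) and mt-Cytb lower (309 and 268 CPM in sgRNA2 cells, 455 and 467 CPM in sgRNA1 cells). The mitochondrial counts were 1 and 7 without sgRNA2 library 1, 4 and 2 without sgRNA2 library 2, and 1 and 2 without sgRNA1 library 2. With the length correction they were 1 and 7, with a median of -0.44 in place of -0.16. Of 56 tested ribosomal protein pseudogenes 36 were higher and 0 lower. They share reads with their parent genes, so their values are uncertain. Among called genes averaging 5 CPM or more whose libraries did not overlap, 8 of the 12 highest fold changes belonged to them or to the retrogene Rps27rt, headed by Rpl27-ps3, with 92.5 and 17.5 CPM in sgRNA2 cells, against 14.4 and 12.1 CPM in sgRNA1 cells. Rpl27-ps3 rests on sgRNA2 library 1: without that library its log2 fold change was 0.40 (adjusted p = 0.381) in place of 2.0042.

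Early response genes formed the most lowered list. This class is switched on within minutes by growth factor and MAPK signalling and includes the AP-1 subunits of the FOS and JUN families, with the DUSP and Sprouty genes as feedback inhibitors. Of 29 tested, 24 were lower in sgRNA2 cells and 1 higher, with a median log2 fold change of -0.68. Without sgRNA1 library 2 the counts were 20 and 1. 8 members were at least 2-fold lower.

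Egr1, a zinc finger transcription factor and the gene with the lowest fold change named, had 0.913 and 1.30 CPM in sgRNA2 cells and 14.5 and 13.9 CPM in sgRNA1 cells. Control cells with IFN-gamma had 1.45 and 1.23 CPM, so the sgRNA1 libraries alone were high. The log2 fold change was -3.64 ± 0.20 (adjusted p = 2.92e-10). Ier2, another early nuclear factor, had 11.5 and 11.6 CPM in sgRNA2 cells, 40.4 and 37.1 CPM in sgRNA1 cells and 12.4 and 11.9 CPM in control cells (-1.75 ± 0.09). Fosl1, the FOS family member FRA1, had 33.7 and 31.3 CPM in sgRNA2 cells, 81.1 and 81.6 CPM in sgRNA1 cells and 31.8 and 35.0 CPM in control cells (-1.33 ± 0.06). In these 3 genes the sgRNA2 and control libraries were close and the sgRNA1 libraries stood apart. The whole list of 29 was mixed in this respect. Control with IFN-gamma lay between the guide lines for 14, above both for 8 and below both for 7, and was nearer the sgRNA2 line for 13.

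Junb had 215 and 223 CPM in sgRNA2 cells, 434 and 430 CPM in sgRNA1 cells and 338 and 321 CPM in control cells (-0.98 ± 0.05). In vehicle its order was turned round, at 499 and 452 CPM in sgRNA2 cells and 303 and 278 CPM in sgRNA1 cells (0.71 ± 0.05), and the difference between the treatments was called (adjusted p = 3.58e-11). Ier3 behaved in the same way (-1.03 in IFN-gamma and 0.28 in vehicle, with the difference called at adjusted p = 1.35e-10). Fos was lower in IFN-gamma (-1.26 ± 0.21), with 2.07 and 1.31 CPM in sgRNA2 cells and 2.11 and 1.45 CPM in sgRNA1 cells in vehicle. Spry4 (-1.14), Klf2 (-1.10), Dusp1 (-0.91), Dusp6 (-0.77), Klf6 (-0.74), Jun (-0.66) and Atf3 (-0.60) were also lower. Dusp4, a nuclear MAPK phosphatase, was the only member called higher (0.26 ± 0.05). Over the list, 16 were lower and 6 higher in vehicle.

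**Figure D4:**
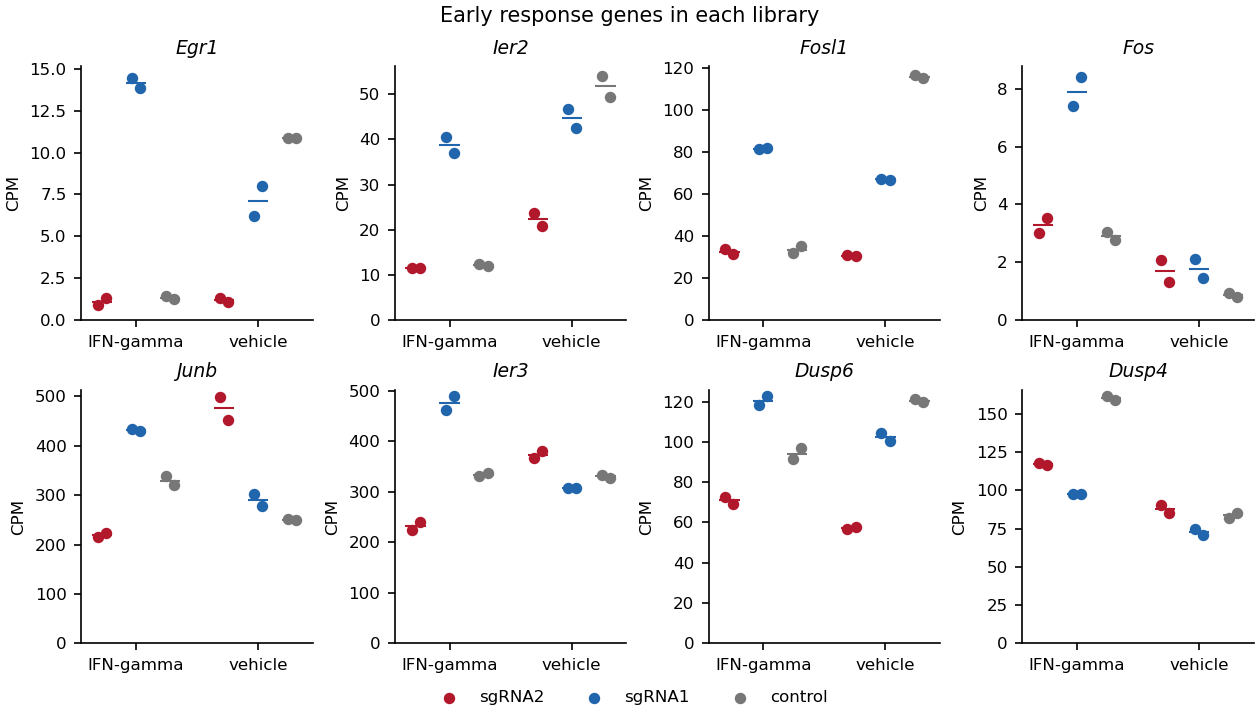
CPM of 8 early response genes in each of the 12 libraries, by treatment, with sgRNA2, sgRNA1 and control from left to right; lines mark the means of 2 libraries and every axis starts at 0. In IFN-gamma the sgRNA1 libraries are the highest in 7 of the 8 genes and the lowest for Dusp4.

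The core of the interferon pathway showed small differences in IFN-gamma, more often higher in sgRNA2 cells. Of 16 genes of the receptor, the JAK kinases, the STATs and the interferon regulatory factors, 7 were higher and 1 lower, with a median of 0.11. Without sgRNA1 library 2, 4 were higher. Irf8 (0.47), Tyk2 (0.41), Irf9 (0.37) and Irf1 (0.30) were higher, and Stat6, the interleukin 4 STAT, lower (-0.40). In vehicle 13 of the 16 were higher and 1 lower, with a median of 0.46. The change between treatments was called and negative for 11. Of 12 feedback inhibitors 5 were higher and 5 lower in IFN-gamma. Both suppressors Socs1 (-0.23) and Socs3 (-0.25) were lower, and Pias3 was higher (0.31). The feedback counts were 1 higher and 3 lower without sgRNA1 library 1, 3 and 4 without sgRNA2 library 1, and 3 and 3 with DESeq2.

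Effector GTPases were more often higher than lower in sgRNA2 cells. Of 16 IFN-gamma-inducible GTPases 7 were higher, 3 lower and 6 not called, against 23.4% higher and 24.5% lower over all genes. The lower count did not exceed the share over all genes. Among the higher ones were guanylate-binding proteins, which attack vacuoles of pathogens: Gbp8 (1.08), Gbp5 (0.82), Gbp10 (0.80), Gbp6 (0.66) and Gbp2 (0.65). Gbp2 had 1169 and 1111 CPM in sgRNA2 cells, 734 and 720 CPM in sgRNA1 cells and 1741 and 1731 CPM in control cells, so both guide lines lay below control. The lower ones were Tgtp2 (-0.80) and Tgtp1 (-0.62), with Irgm2 at -0.15. Members of the Gbp and Tgtp families are near-identical in sequence and share reads, so single values are uncertain. With DESeq2 in place of edgeR, Gbp6 and Tgtp1 were not called (adjusted p = 0.358 and 0.540). Irgm2 was not called without sgRNA1 library 2 (-0.12, adjusted p = 0.0894).

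Of 32 antiviral genes also driven by type I interferon, 18 were higher in sgRNA2 cells and 2 lower, with a median of 0.27. The higher count fell to 14 without sgRNA2 library 1 and to 14 without sgRNA1 library 1. Ifit2, which binds foreign RNA, had 105 and 105 CPM in sgRNA2 cells, 50.5 and 53.2 CPM in sgRNA1 cells and 151 and 150 CPM in control cells (1.02 ± 0.05). In vehicle its difference was not called (0.15, adjusted p = 0.0878), and the difference between treatments was called (0.87, adjusted p = 5.2e-07). Ifi205 (1.0982), Ifit3 (1.06), the 2-prime 5-prime oligoadenylate synthetase relative Oasl1 (0.65) and viperin, Rsad2 (0.65), were higher. Eif2ak2, the kinase PKR, had 91.4 and 88.3 CPM in sgRNA2 cells, against 126 and 135 CPM in sgRNA1 cells (-0.54 ± 0.05), and the RNA editing enzyme Adar was lower as well (-0.25). Most of the list stood wider apart in vehicle, with 22 higher, 1 lower and a median of 1.21, and the change between treatments was called and negative for 20 members.

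The motif GAAA, any 2 bases, GAAA, the core of the element read by IRF and ISGF3 factors, was searched on both strands from 250 bases before to 50 bases after each start. It was found for 14 of 23 antiviral members with a window (60.9%), against 1079 of 27025 genes (3.99%). The 3 highest members whose match ends before the start or at most 30 bases after it, and the lower member Eif2ak2, which holds one too, are shown with the motif or its reverse complement in capitals.
Ifi205, chr1:174031850-174031919, minus strand: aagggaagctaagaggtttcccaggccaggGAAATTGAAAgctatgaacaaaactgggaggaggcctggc
Ifit3, chr19:34583377-34583446, plus strand: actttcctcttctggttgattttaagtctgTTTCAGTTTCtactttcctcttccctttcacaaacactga
Rsad2, chr12:26456533-26456602, minus strand: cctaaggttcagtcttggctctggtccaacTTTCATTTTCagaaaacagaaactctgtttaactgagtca
Eif2ak2, chr17:78882543-78882584, minus strand: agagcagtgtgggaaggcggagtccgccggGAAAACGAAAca

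Class I antigen presentation genes were more often higher than lower in sgRNA2 cells. Of 25 class I chains and loading factors 12 were higher and 6 lower, against 23.4% and 24.5% of all genes. The lower count was thus near the share over all genes. The non-classical chain H2-T23, the mouse Qa-1 ligand of NK receptors, had 495 and 530 CPM in sgRNA2 cells, 277 and 272 CPM in sgRNA1 cells and 636 and 624 CPM in control cells (0.90 ± 0.05). H2-T22 (0.75), H2-Q7 (0.49), the immunoproteasome subunit Psmb9 (0.46) and B2m (0.20) were higher. The proteasome activator Psme3 (-0.48), the peptide editor Tapbpl (-0.48) and the trimming peptidase Erap1 (-0.47) were lower. H2 genes are polymorphic between BALB/c and the reference strain, so their levels are uncertain. Of 9 class II genes only Rfxap was called, a subunit of the factor that reads class II promoters, at -0.29. It was not called without sgRNA2 library 2 (-0.15, adjusted p = 0.380), without sgRNA1 library 1 (adjusted p = 0.1201) or without sgRNA1 library 2 (adjusted p = 0.107). Of 16 ligands of checkpoint and NK receptors 4 were higher and 3 lower. Cd274, the ligand PD-L1, had 78.7 and 77.6 CPM in sgRNA2 cells, 49.7 and 54.7 CPM in sgRNA1 cells and 142 and 151 CPM in control cells (0.58 ± 0.10). DESeq2 gave Cd274 an adjusted p of 0.231. The death receptor Fas (0.72), the adenosine-making ectoenzyme Nt5e (0.41) and the phagocytosis checkpoint Cd47 (0.35) were higher, and Tnfsf9, the ligand of 4-1BB, lower (-0.70).

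Chemokines and cytokines that act on myeloid cells were each more often lower than higher in sgRNA2 cells. Some chemokines, among them Cxcl11, Cxcl10 and Ccl5, were higher. Of 14 chemokines 8 were lower and 4 higher. Cxcl5, a neutrophil chemokine, had 528 and 496 CPM in sgRNA2 cells, 1189 and 1133 CPM in sgRNA1 cells and 387 and 417 CPM in control cells (-1.18 ± 0.05, adjusted p = 1.91e-11). Ccl20 (-1.24), Cxcl3 (-0.90), Cxcl1 (-0.50) and Ccl2 (-0.37) were lower too. Of the ligands of CXCR3, Cxcl11 had 117 and 108 CPM in sgRNA2 cells, against 69.4 and 72.6 CPM in sgRNA1 cells (0.66 ± 0.08), Cxcl10 was higher by less (0.24), and Cxcl9 was at 305 and 295 CPM in sgRNA2 cells and 279 and 289 CPM in sgRNA1 cells, not called. Ccl5 was higher (0.64).

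Of 21 cytokines and growth factors that act on myeloid cells 11 were lower and 3 higher, or 7 lower and 3 higher without sgRNA1 library 2. Csf2, the cytokine GM-CSF, had 6.23 and 6.63 CPM in sgRNA2 cells, 19.77 and 16 CPM in sgRNA1 cells and 1.55 and 2.01 CPM in control cells (-1.47 ± 0.15). Csf1, the macrophage growth factor, had 155 and 167 CPM in sgRNA2 cells, 276 and 289 CPM in sgRNA1 cells and 233 and 227 CPM in control cells (-0.81 ± 0.05). The difference of Csf1 in vehicle was 0.16, and the change between treatments was called (adjusted p = 8.32e-09). Il1a (-0.63), Lif (-0.57), Csf3 (-0.41) and Il6 (-0.38) were lower, and Il15, which sustains NK and memory T cells, was higher (1.06 ± 0.12).

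The NF-kB list, 4 higher and 11 lower of 22, and 2 higher without sgRNA2 library 2, was led by the subunit Rela (-0.73), its relative Rel (-0.63) and the prostaglandin synthase Ptgs2. Ptgs2 had 509 and 491 CPM in sgRNA2 cells, 817 and 838 CPM in sgRNA1 cells and 201 and 206 CPM in control cells (-0.73 ± 0.04). The adhesion molecules Vcam1 (0.37) and Icam1 (0.29) were higher. Of 15 C/EBP family and acute phase genes, a list that holds Cebpd itself, 8 were lower and 3 higher, with a median of -0.36. The pentraxin Ptx3 (-1.31), serum amyloid Saa3 (-0.75), the metalloreductase Steap4 (-0.73) and Cebpb (-0.33) were lower, and ceruloplasmin Cp (0.29) and lipocalin Lcn2 (0.22) higher. Control cells had lower Saa3 than both guide lines, with 9.93 and 10.7 CPM in sgRNA2 cells, 18.6 and 16.2 CPM in sgRNA1 cells and 1.499 and 1.337 CPM in control cells. Of 12 complement genes 3 were higher, among them C3 (0.30) and C4b (0.44), and clusterin, Clu, was lower (-0.26).

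Metal handling contained one of the largest differences. Metallothioneins are small cysteine-rich proteins that buffer zinc and copper and are induced by them through MTF1. Mt2 had 60.5 and 50.5 CPM in sgRNA2 cells, 168 and 171 CPM in sgRNA1 cells and 52.5 and 56.1 CPM in control cells (-1.62 ± 0.07, adjusted p = 3.29e-11). Mt1 had 46.7 and 42.0 CPM in sgRNA2 cells, 84.6 and 81.7 CPM in sgRNA1 cells and 49.7 and 48.2 CPM in control cells (-0.91 ± 0.07). In both, the sgRNA1 libraries stood high. The zinc exporter Slc30a1, another MTF1 target, was lower (-0.99), as were Mtf1 itself (-0.49) and the transferrin receptor Tfrc (-0.43). The ferritin chains Ftl1 (0.31) and Fth1 (0.20) and the zinc importer Slc39a10 (0.54) were higher. Over the list of 14, 7 were lower and 3 higher.

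The core of the metal response element, TGCACNC or TGCGCNC, was found on either strand for 5 of 9 listed genes with a window (55.6%), against 7630 of 27025 genes (28.2%). The windows of Mt2 and Mt1, which hold 4 and 3 matches, are shown up to at most 30 bases after the start, with each match or its reverse complement in capitals.
Mt2, chr8:94172368-94172647, plus strand: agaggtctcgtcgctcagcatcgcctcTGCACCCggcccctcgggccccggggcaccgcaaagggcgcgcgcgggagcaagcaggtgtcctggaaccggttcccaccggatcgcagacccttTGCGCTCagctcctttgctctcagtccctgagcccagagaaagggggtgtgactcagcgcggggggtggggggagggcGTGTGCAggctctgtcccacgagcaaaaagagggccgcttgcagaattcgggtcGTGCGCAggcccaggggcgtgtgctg
Mt1, chr8:94179036-94179118, plus strand: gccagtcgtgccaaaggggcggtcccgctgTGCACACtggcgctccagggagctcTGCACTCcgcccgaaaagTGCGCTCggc

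Lipid and sugar metabolism showed modest differences in IFN-gamma. Of 16 fatty acid synthesis genes 9 were lower and 4 higher, or 8 and 2 without sgRNA1 library 1. Fasn, fatty acid synthase, had 163 and 166 CPM in sgRNA2 cells, 348 and 357 CPM in sgRNA1 cells and 424 and 407 CPM in control cells (-1.0995 ± 0.05). The elongase Elovl6 was lower (-0.75) and the mitochondrial acetyl-CoA carboxylase Acacb higher (1.02). Of 24 cholesterol genes 10 were lower and 6 higher, among the lower ones Hsd17b7 (-0.73), and 3 were higher without sgRNA2 library 2. In vehicle 21 of them were lower and 0 higher.

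Of 24 hypoxia-inducible genes 10 were higher and 9 lower, with a median of -0.004, and the counts were 5 and 7 without sgRNA2 library 1 and 6 and 6 without sgRNA1 library 1. In vehicle 23 of the same genes were higher in sgRNA2 cells and 0 lower (median 1.18), and the change between treatments was called and negative for all 24. Vegfa, the vascular growth factor, had 57.7 and 62.6 CPM in sgRNA2 cells and 51.5 and 49.3 CPM in sgRNA1 cells with IFN-gamma, and 237 and 229 CPM in sgRNA2 cells and 50.2 and 52.0 CPM in sgRNA1 cells in vehicle. The excess of the sgRNA2 line was thus far larger in vehicle. Of 17 glycolysis enzymes 6 were higher and 9 lower in IFN-gamma, and 16 were higher in vehicle. The IFN-gamma counts were 6 and 6 with upper quartile scaling or with only the compared libraries. With the length correction they were 7 and 7. The brain-type isoenzymes Eno2 (0.74) and Aldoc (0.70) were higher, and Pfkl (-0.42) and Pgam1 (-0.40) lower.

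Of 33 genes of the ATF4 programme and tRNA synthetases 13 were higher and 8 lower. The serine synthesis enzymes Psph (0.46), Psat1 (0.36) and Phgdh (0.27) were higher and Atf4 itself lower (-0.20). Of 13 methionine and polyamine genes 4 were higher and 5 lower, and 3 lower without sgRNA2 library 2. Mat2a, which makes S-adenosylmethionine, had 33.4 and 35.1 CPM in sgRNA2 cells, 81.0 and 77.5 CPM in sgRNA1 cells and 22.5 and 23.1 CPM in control cells (-1.21 ± 0.05). Of 26 NRF2 target genes 12 were higher and 8 lower, among them Nqo1 (0.53) and the growth inhibitor Osgin1 (log2 fold change -1.1), and 5 were lower without sgRNA2 library 1, without sgRNA1 library 2 or with DESeq2. Of 14 genes of arginine, nitric oxide and tryptophan use 5 were higher and 4 lower. Ddah2, which clears methylated arginines, was higher (0.96) and ornithine decarboxylase, Odc1, lower (-0.49). Without sgRNA2 library 1 these counts were 4 and 2, and without sgRNA1 library 2 they were 3 and 3.

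Chaperones of the endoplasmic reticulum were more often higher in sgRNA2 cells, and heat shock genes more often lower. Of 22 chaperones and sensors of the endoplasmic reticulum 13 were higher and 3 lower, or 11 and 1 without sgRNA1 library 2. Hspa5, the chaperone BiP, had 3034 and 2995 CPM in sgRNA2 cells, 2006 and 1862 CPM in sgRNA1 cells and 2862 and 2811 CPM in control cells (0.64 ± 0.04). In vehicle its difference was -0.04, and the change between treatments was called (0.68, adjusted p = 2.2e-08). Dnajb9 (0.72), Sdf2l1 (0.71), Pdia4 (0.62) and Xbp1 (0.50) were higher as well. Of 16 heat shock genes 7 were lower and 3 higher. The list is mainly cytosolic but holds the mitochondrial chaperonin Hspe1, which was higher (0.44). Hspa1b (-0.75), Dnaja1 (-0.59) and Hsp90aa1 (-0.39) were lower, whereas the constitutive Hspa8 had 1810 and 1748 CPM in sgRNA2 cells, against 1074 and 1020 CPM in sgRNA1 cells (0.76 ± 0.04).

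In the lysosome and autophagy list 19 of 31 genes were higher and 0 lower, with a median of 0.21. In vehicle 22 were higher and 4 lower. With the length correction the IFN-gamma counts were 18 and 2. Without sgRNA2 library 1 the counts were 16 and 1. The galactosidase Gla had 47.2 and 46.9 CPM in sgRNA2 cells, against 20.2 and 24.2 CPM in sgRNA1 cells (1.08 ± 0.08). The cathepsin Ctsh (0.64), the cholesterol carrier Npc2 (0.60) and the autophagosome protein Gabarapl1 (0.56) were also higher. The late endosomal glycoprotein Cd68 had 30.5 and 29.0 CPM in sgRNA2 cells, 11.6 and 12.4 CPM in sgRNA1 cells and 35.1 and 35.3 CPM in control cells (1.31 ± 0.10). Cd68 is also a macrophage marker, and beside it the macrophage gene Cd14 was lower in sgRNA2 cells, at 14.4 and 15.5 CPM, against 27.4 and 26.5 CPM in sgRNA1 cells, and Csf1r was at or below 1.45 CPM in all 4 libraries.

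In the cell cycle, S-phase genes were more often lower. Of 37 replication genes 19 were lower and 6 higher. Ccne2, cyclin E2, had 25.9 and 23.9 CPM in sgRNA2 cells, 51.5 and 49.9 CPM in sgRNA1 cells and 7.88 and 5.86 CPM in control cells (-1.03 ± 0.08). Cdc6 (-0.97), Ccne1 (-0.80) and Rrm2 (-0.75) were lower, and the clamp loader subunit Rfc3 was higher (0.62). In vehicle 36 of the 37 were lower, and the change between treatments was called and positive for 34. Of 32 mitotic genes 7 were higher and 10 lower, a split that turned to 11 and 9 with upper quartile scaling and to 12 and 8 with the length correction, and was 4 and 9 without sgRNA2 library 1. Cenpf (-0.55) and Mki67 (-0.39) were lower and Cenpa higher (0.46).

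Of 16 p53 targets 5 were higher and 7 lower. Cdkn1a, the inhibitor p21, had 16.1 and 13.5 CPM in sgRNA2 cells, 28.1 and 33.0 CPM in sgRNA1 cells and 16.1 and 17.1 CPM in control cells (-1.05 ± 0.10). Gadd45a was higher (0.67). Of 27 cell death genes 9 were higher and 7 lower, and 4 were lower without sgRNA2 library 1 or without sgRNA1 library 1. The inflammatory caspases Casp4 (1.0027), Casp12 (0.82) and Casp1 (0.64) and the pyroptotic pore protein Gsdmd (0.40) were higher. Casp4 had 40.2 and 39.4 CPM in sgRNA2 cells, against 20.3 and 19.4 CPM in sgRNA1 cells. The mitochondrial pore former Bak1 was lower (-0.43).

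Of 21 matrix proteases and inhibitors 11 were lower and 3 higher. Adamts1 had 57.8 and 60.2 CPM in sgRNA2 cells, 117 and 116 CPM in sgRNA1 cells and 57.3 and 55.7 CPM in control cells (-0.98 ± 0.05). Mmp10 (-0.91), Mmp13 (-0.90) and the urokinase receptor Plaur (-0.65) were lower, and Adam8 (0.57) and Mmp11 (0.59) higher. Ccn2, a target of both YAP and TGF-beta, had 68.1 and 67.9 CPM in sgRNA2 cells, 147 and 149 CPM in sgRNA1 cells and 19.73 and 22.98 CPM in control cells (-1.12 ± 0.05). Of 16 YAP and TEAD targets 8 were lower and 2 higher, and of 24 matricellular and TGF-beta targets 10 were lower and 3 higher, with 1 higher without sgRNA2 library 2, without sgRNA1 library 2 or with DESeq2. Of 18 Wnt and Notch genes 6 were lower and 2 higher, and leaving out any 1 of the 4 libraries left at most 1 higher, with 0 without sgRNA2 library 2. Nrarp (-1.03) and Hes1 (-1.01), direct targets of Notch, and the ligands Jag1 (-0.73) and Dll1 (-0.48) were lower. The ligand Dll4, outside the list, had 7.95 and 7.18 CPM in sgRNA2 cells, against 23.1 and 20.6 CPM in sgRNA1 cells (-1.53 ± 0.12).

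Cell identity lists were mixed. Of 29 epithelial genes 7 were higher and 10 lower: the keratins Krt18 (0.55) and Krt7 (0.45) were higher, and the epithelial regulators Ovol1 (-1.38), Esrp2 (-0.38) and Grhl2 (-0.36) lower. Of 17 mesenchymal genes 2 were higher and 4 lower, among them vimentin, Vim (0.22), and fibronectin, Fn1 (-0.22), and 2 were lower without sgRNA2 library 2 or without sgRNA1 library 1. Of 12 genes of the MYC network 2 were higher and 3 lower, and 1 was higher without sgRNA2 library 2 or without sgRNA1 library 2.

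Outside the lists, and among called genes averaging 5 CPM or more, the lowest by fold change included Ppp1r10, a nuclear targeting subunit of protein phosphatase 1. It had 20.0 and 20.9 CPM in sgRNA2 cells, 88.1 and 91.2 CPM in sgRNA1 cells and 23.1 and 22.7 CPM in control cells (-2.13 ± 0.06, adjusted p = 1.5e-13). Hexim1, an inhibitor of the elongation factor P-TEFb, had 9.40 and 10.1 CPM in sgRNA2 cells, against 28.1 and 28.8 CPM in sgRNA1 cells (-1.54 ± 0.10). Rgs16, a regulator of G protein signalling, had 57.2 and 56.9 CPM in sgRNA2 cells, 162 and 161 CPM in sgRNA1 cells and 48.2 and 44.3 CPM in control cells (-1.50 ± 0.06). In Ppp1r10 and Rgs16 the sgRNA2 line was again near control and the sgRNA1 line high. Jrk (-1.73) and the tRNA-modifying Trmt12 (-1.62) also lay at this end. At the other end of these genes, outside ribosomal sequences, stood Ell3 (1.61), of the ELL elongation factor family, the uroplakin-like Upk3bl (1.47), Cd68 and the calcium-binding S100a16, with 13.7 and 13.2 CPM in sgRNA2 cells, against 5.53 and 5.62 CPM in sgRNA1 cells.

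The control line with IFN-gamma, which enters neither side of the comparison, lay on different sides of it for different genes. Of the 3182 genes higher in sgRNA2 cells, its mean lay above both guide lines for 1323, between them for 1035 and below both for 824. Of the 3336 lower genes it lay above both for 969, between them for 939 and below both for 1428. Control lay between the guide lines for 64 of the 81 ribosomal proteins and above both for 15 of the 16 receptor, JAK and STAT genes.

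The same guide lines also differed in vehicle, in 4 libraries that share none with the IFN-gamma comparison. There 8476 genes (62.3%) were called, 4518 higher (33.2%) and 3958 lower (29.1%), with a median size of 0.552 among called genes. Both comparisons called 4934 genes, which are 75.7% of the IFN-gamma calls and 58.2% of the vehicle calls. Of these 4147 had the same sign, 2053 higher and 2094 lower in both, and 787 had opposite signs, 394 higher in IFN-gamma and lower in vehicle and 393 the reverse. The guide difference itself changed between treatments for 5820 genes (42.8%), 2836 with a positive change (20.9%) and 2984 with a negative one (21.9%), including all 787 with opposite signs.

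**Figure D5:**
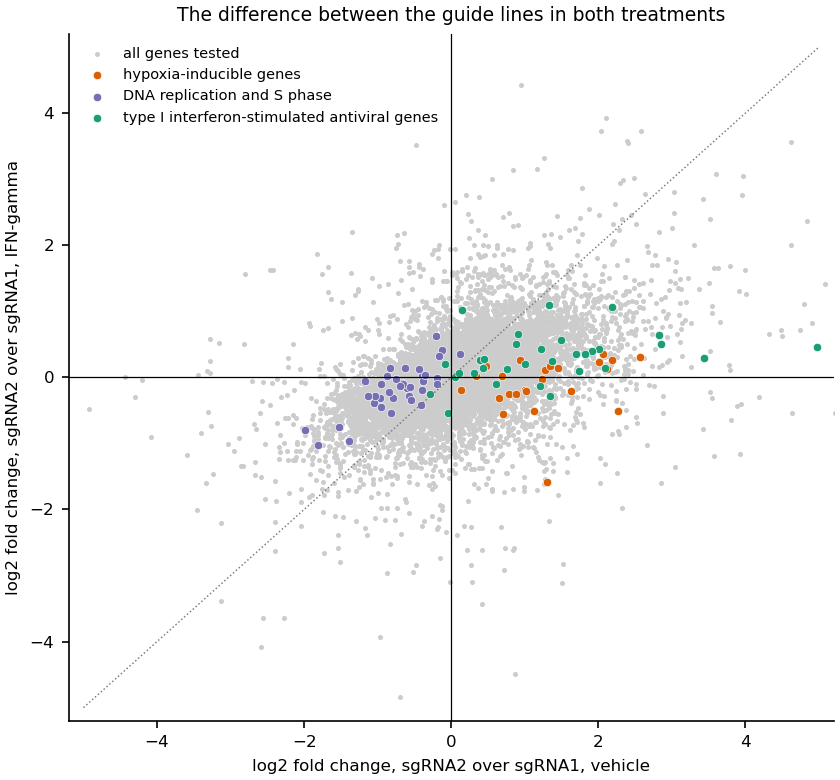
Log2 fold change of sgRNA2 over sgRNA1 in IFN-gamma against that in vehicle for all tested genes, with hypoxia-inducible, DNA replication and type I interferon-stimulated genes in colour; the dotted line marks equal differences, and 14 genes lie outside the axes. Hypoxia genes lie to the right with heights near 0, with medians of 1.18 in vehicle and -0.004 in IFN-gamma, and replication genes lie to the left, with medians of -0.67 and -0.13.

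Several genes with a large change between treatments stood further apart in vehicle than in IFN-gamma. Txnip, an inhibitor of thioredoxin and glucose uptake, had a mean of 275 CPM in sgRNA2 cells and 47.9 CPM in sgRNA1 cells in vehicle, and 43.2 and 43.9 CPM in sgRNA2 cells and 68.9 and 72.4 CPM in sgRNA1 cells with IFN-gamma. Its log2 fold change was 2.52 in vehicle and -0.70 in IFN-gamma. Bysl, a factor of small subunit assembly, was lower in both, by more in vehicle (-2.26) than in IFN-gamma (-0.62). Tigar, a fructose bisphosphatase that shunts glucose to the pentose phosphate pathway, was not called in IFN-gamma (13.5 and 14.6 CPM in sgRNA2 cells, 13.5 and 14.3 CPM in sgRNA1 cells) and lower in vehicle (-1.78).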

How the data were processed

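RNA sequencing counts per gene were deposited by the authors for 12 libraries in 6 groups of 2. Per the submitters' processing notes, STAR 2.4.0, HTSeq, DESeq2 1.10 and the mm10 build were named, with no roles given. The library kit was TruSeq RNA, with 1 ug of RNA as input, per the labels' protocols, and strand use in counting is not given in the sources used here, so overlapping genes on opposite strands cannot be separated. Groups were taken from the titles and the treatment entry. Total counts were 16912710 to 24784371 per library.

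All tests used edgeR 4.0.16 in R 4.3.3: TMM scaling, filterByExpr (minimum count 10, total 15), which left 13601 of 16283 genes and 99.965% of counts, and a quasi-likelihood fit of all 12 libraries with 1 mean per group and 6 residual degrees of freedom. The biological coefficient of variation was 4.67%. P-values were adjusted by the Benjamini-Hochberg method over all 13601 genes, at a threshold of 0.05, and the SE is the log2 fold change divided by the square root of F. Contrasts were sgRNA2 against sgRNA1 in IFN-gamma, the same in vehicle, and their difference. The script was tested on simulated data.

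The gene lists and the genes described were chosen with earlier results of these data known. Named genes were Cebpd; up to 12 per direction by log2 fold change among calls averaging 5 CPM or more whose libraries do not overlap, without predicted or clone names; 5 per direction by CPM difference; up to 4 per list and direction with at least 1 CPM; and up to 6 per direction for the difference between treatments. Other list members are given beside them. Coordinates are GRCm38, and promoter windows are from RefSeq (GRCm38.p6). Alternatives were other scalings, no filter, DESeq2 1.42.0, a replicate block, only the compared libraries, leaving out each library and, added after the data were seen, a correction for gene length. Some genes that this rule names are not reported here.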

Additional observations from a re-analysis of the deposited data

Results flagged for a closer look

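Some genes were singled out where the difference of sgRNA2 against sgRNA1 in IFN-gamma was called unequal to that in vehicle, by the edgeR test of the difference itself. In these, either the fold changes were called in opposite directions or the gap was among the largest. They are only a part of the genes that meet this rule, and Junb, described above, is another. Over all tested genes 787 had opposite calls, 393 lower in IFN-gamma and higher in vehicle and 394 the reverse. The number listed per direction is therefore no result. Values are the log2 fold change in IFN-gamma minus that in vehicle.

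Among genes lower in sgRNA2 cells in IFN-gamma and higher in vehicle, the difference was -3.22 for Txnip (-0.70 in IFN-gamma, 2.52 in vehicle), -2.87 for the linker histone H1f2 (-1.17 and 1.71), -2.78 for the hypoxia gene Ankrd37 (-0.52 and 2.26) and -2.67 for the epithelial regulator Ovol1 (-1.38 and 1.28). It was -1.64 for the collagen hydroxylase subunit P4ha2 (-0.51 and 1.13), -1.43 for Parp14 (-0.30 and 1.13), -1.42 for the alarmin Il33 (-0.73 and 0.68) and -1.37 for Sesn2 (-0.93 and 0.44). It was -1.34 for the class I gene H2-Q4 (-0.15 and 1.19), -1.25 for the oxygen sensor Egln1 (-0.55 and 0.70), -1.06 for Snai1 (-0.34 and 0.73), -1.01 for Irgm2 (-0.15 and 0.85) and -0.37 for the lactate dehydrogenase Ldha (-0.21 and 0.15).

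Psat1 (0.36 in IFN-gamma, -0.69 in vehicle) and the mitochondrial chaperonin Hspe1 (0.44 and -0.78) went the other way, with differences of 1.05 and 1.22. The gap was wide without opposite calls for Ifit3b (-4.53; 0.45 and 4.98), Mx2 (-3.13; 0.30 and 3.43), Rpl27-ps3 (2.17; 2.0042 and -0.16), Ccl7 (2.06; -0.54 and -2.60), Ccnb1ip1 (1.93; 0.13 and -1.80), Tigar (1.80; 0.02 and -1.78), Bysl (1.64; -0.62 and -2.26) and Polr1e (1.61; -0.08 and -1.69).

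Some of these calls were lost when a library was left out. The difference for Rpl27-ps3 was 0.59 (adjusted p = 0.281) without sgRNA2 IFN-gamma library 1 and 2.05 (adjusted p = 0.0748) without sgRNA1 IFN-gamma library 2, and that for Ccl7 was 1.23 (adjusted p = 0.0591) without sgRNA2 vehicle library 1. The fold change in IFN-gamma was not called for H2-Q4 without sgRNA2 library 1 (-0.10, adjusted p = 0.125) or sgRNA1 library 1 (-0.12, adjusted p = 0.0911), or for Irgm2 without sgRNA1 library 2 (-0.12, adjusted p = 0.0894). It was not called for Il33 without sgRNA2 library 2 (-0.59, adjusted p = 0.0723) or sgRNA1 library 2 (-0.57, adjusted p = 0.0891). Snai1 was not called without sgRNA2 library 2 (-0.27, adjusted p = 0.112) or sgRNA1 library 1 (-0.23, adjusted p = 0.149), and Ankrd37 was not called without sgRNA2 library 2 (-0.41, adjusted p = 0.138) or sgRNA1 library 1 (-0.19, adjusted p = 0.420). No cause was tested for any of them.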

How the results depend on the processing

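The counts of called genes stayed within 1.5 times the reported ones under every alternative run. In IFN-gamma, against 6518 genes, they were 6455 with upper quartile scaling, 6492 with DESeq2 size factors, 6408 with no filter, 5517 with the DESeq2 Wald test, 6319 with only the compared libraries and 6455 with the length correction, and 5037 to 5519 with a library left out. In vehicle, leaving out a library gave 7398 to 7629 genes, and for the difference between treatments 4912 to 5450. Genes called at least 2-fold numbered 397 to 506 with a library left out. Of 3708 recomputed fold changes of 302 genes, 3563 kept their call, 145 in 51 genes lost it and 0 reversed; the causes were not tested.

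With a replicate block the counts were 6492 in IFN-gamma, 8460 in vehicle and 5794 for the difference. Over 9291 genes, the deviations of libraries with the same replicate number correlated at -0.0121 in IFN-gamma and 0.0459 in vehicle. Some gene classes still leaned the same way in both guide lines in IFN-gamma. Library 1 exceeded library 2 over ribosomal proteins by a median of 0.185 in sgRNA2 cells and 0.104 in sgRNA1 cells. The shortest genes did likewise. The replicate numbers were not taken as a pairing in the reported fit, and a shared handling of same-numbered libraries was not tested. The precision of genes with few counts is limited by 2 libraries per group.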
